A study of Mus musculus with 4 samples.

Results

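Glycolysis and the hypoxia response were examined through 35 genes in sorted spleen cells of BXD2 mice, a recombinant inbred strain that develops lupus-like autoimmune disease. The genes were chosen by name, as the enzymes and transporters of glucose breakdown together with the oxygen-sensing proteins and common hypoxia-induced genes. A probe was taken as a member where its only annotated symbol was a listed gene, which gave 59 of the 45281 probes and 32 of the 19057 genes with a symbol of their own. No probe carried Hk2, Gpi1 or Eno1 as its only symbol, and these 3 genes were not analysed here. The study compared marginal zone macrophages, phagocytes at the border of the splenic white pulp, on 4 single-colour bead arrays. The first array came from BXD2-Ifnar-/- mice, which lack the type I interferon receptor, given PBS. The next came from BXD2 mice given 25 µg per mouse of sLTβR-Fc, a soluble decoy receptor for lymphotoxin, by the intravenous route. The controls were BXD2 mice given PBS, measured on 2 arrays. All mice were 2.5 months old and were killed 10 hours after the injection. Each array pooled cells of 2 mice, sorted on 4 surface antigens, as CD11b low, I-Ab negative and SIGN-R1 positive, and as negative for the macrophage antigen that Adgre1 encodes. The labels name no cell type restriction for the Ifnar deletion and no control Fc protein, so lymphotoxin blockade and injection of an Fc protein cannot be told apart.

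Glycolysis splits glucose into pyruvate, which is turned into lactate by lactate dehydrogenase or enters the mitochondria through pyruvate dehydrogenase. When oxygen is low, prolyl hydroxylases no longer mark the α subunits of the hypoxia-inducible factors for destruction by the VHL ubiquitin ligase, and the stabilised factors bind short hypoxia response elements and raise transcription of most glycolytic genes. Macrophages are known to use the same programme at normal oxygen after inflammatory stimulation, where HIF activity raises glucose uptake and lactate output.

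Promoter sequences are shown for Hk3 and Egln3, which stood far above the controls on the sLTβR-Fc array, and for Ldha and Pgk1, which lay below the controls on the Ifnar-/- array. They are RefSeq windows of build GRCm38.p6, each from 250 bases before to 50 bases after a gene start, read 5′ to 3′ on the gene's strand. Capitals mark the core of the hypoxia response element, ACGTG or GCGTG on the gene's strand and CACGT or CACGC for the same motifs on the other strand.
Hk3 promoter, chr13:55021336-55021635, minus strand: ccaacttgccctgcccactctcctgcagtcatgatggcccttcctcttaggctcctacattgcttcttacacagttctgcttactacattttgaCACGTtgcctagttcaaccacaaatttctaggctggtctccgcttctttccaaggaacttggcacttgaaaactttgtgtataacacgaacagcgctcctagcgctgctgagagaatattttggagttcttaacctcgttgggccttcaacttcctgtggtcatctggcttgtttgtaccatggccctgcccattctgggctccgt
Egln3 promoter, chr12:54203825-54204124, minus strand: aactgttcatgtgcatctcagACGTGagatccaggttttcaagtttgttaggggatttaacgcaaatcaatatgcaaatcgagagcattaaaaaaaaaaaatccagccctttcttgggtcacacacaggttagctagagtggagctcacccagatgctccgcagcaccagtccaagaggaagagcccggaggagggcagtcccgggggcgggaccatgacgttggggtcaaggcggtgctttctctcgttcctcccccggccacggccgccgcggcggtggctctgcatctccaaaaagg
Ldha promoter, chr7:46845554-46845853, plus strand: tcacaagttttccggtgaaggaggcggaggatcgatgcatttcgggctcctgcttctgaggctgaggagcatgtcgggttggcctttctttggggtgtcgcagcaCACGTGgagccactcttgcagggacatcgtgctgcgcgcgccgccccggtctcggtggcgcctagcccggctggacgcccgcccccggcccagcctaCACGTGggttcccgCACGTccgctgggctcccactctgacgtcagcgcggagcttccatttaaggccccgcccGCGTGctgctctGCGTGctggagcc
Pgk1 promoter, chrX:106186850-106187149, plus strand: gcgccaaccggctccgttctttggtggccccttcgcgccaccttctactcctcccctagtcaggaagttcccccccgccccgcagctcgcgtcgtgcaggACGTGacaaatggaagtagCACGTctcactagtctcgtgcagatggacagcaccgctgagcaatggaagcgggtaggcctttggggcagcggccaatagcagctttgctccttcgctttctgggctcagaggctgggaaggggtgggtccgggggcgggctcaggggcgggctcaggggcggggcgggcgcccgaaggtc
The Hk3 window held 1 match, 156 bases before the start, and the Egln3 window held 1 match, 229 bases before it. The Ldha window shown held 7 matches, among them 2 palindromes CACGTG that each count once on either strand, and the Pgk1 window held 2 matches, 150 and 131 bases before the start. Of the 26 members above background on every array, 23 had a window in the table, 33 windows in all because some genes have several starts. ACGTG lay in 19 of these 33 windows (57.6%), against 19.6% of all 32851 windows, and GCGTG lay in 16 (48.5%) against 32.4%. These members include classical targets of hypoxia-inducible factors, and a match describes letters, not a bound site.

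The values were linear intensities as the authors deposited them, quantile normalised between arrays here, and a gene with several probes was represented by its brightest. Each array had between 23712 and 24385 probes above its background. Of the 32 measured members, 26 were above background on all 4 arrays, 4 on some arrays and 2 on none. Groups were compared in 1 limma fit over the 10765 genes above background on every array, with Benjamini-Hochberg adjustment to 0.05, where the 2 control arrays supply the only measure of spread. The Ifnar-/- and sLTβR-Fc arrays have no replicate, so their spread is taken to equal that between the controls. Nothing in the labels says whether the control arrays came from different mice, so the p-values may measure technical spread alone. A rule of size was used beside the fit, under which a gene counts where it differed at least 2-fold from each control in the same direction. The members' control values were close, the widest pair standing 1.33-fold apart. Intensities contain background, so differences of dim genes are understated, and 4 arrays limit the precision throughout.

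Ifnar1, which encodes a chain of the deleted receptor, had a log2 intensity of 7.58 in the Ifnar-/- sample and 6.87 in the sLTβR-Fc sample, against 7.29 and 7.22 on the control arrays. It was not lower in the knockout, and since its probe may lie outside the deleted sequence, the value does not check the genotype. The sort gate was set against marker genes. Of 6 marginal zone macrophage markers, 4 were above background on every array, of which 1 was called lower on the sLTβR-Fc array, and the scavenger receptor gene Msr1 was on none. The 6 intensities summed to 932 in the Ifnar-/- sample and 835 in the sLTβR-Fc sample, against 944 and 794 on the control arrays. In this and the later sums a value under 111, a floor set near background, counted as 111, so much of this sum is floor. Cd209b, the gene of the SIGN-R1 antigen used in the sort, read 152 in the Ifnar-/- sample and 145 in the sLTβR-Fc sample, against 127 and 130 on the control arrays. These values lie close to background and do not show that the gate held. B cell, T cell, neutrophil and mast cell or basophil markers were read on the same arrays, with sums given with the results below. Adgre1, the gene of an antigen the cells were sorted to lack, read 1017 in the Ifnar-/- sample and 631 in the sLTβR-Fc sample, against 629 and 306 on the control arrays. It was above background on every array and lay above both controls on the Ifnar-/- array (log2 1.21 from their mean). The controls themselves stood far apart, and it missed the rule of size. RNA of this gene was thus present in cells labelled as lacking the antigen. RNA does not measure surface protein, so the values do not settle whether the gate held. In bulk RNA a change in the share of a cell type and a change in RNA per cell cannot be told apart.

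On the sLTβR-Fc array 8 of the 26 members tested were higher than in the controls and 0 were lower. They were the hexokinase gene Hk3, the angiogenic growth factor gene Vegfa, the oxygen-sensing hydroxylase gene Egln3, the stress-response gene Ndrg1 and the glycolytic genes Pkm, Pgam1, Aldoa and Pfkfb4. The 8 make up 30.8% of the members, where 13.2% of all genes tested were called higher and 9.24% lower, 22.4% in either direction. Members lay above both controls in 15 of 26 cases and below both in 5, against 45.3% and 36.6% of all genes, and the median of their log2 differences was 0.12, beside 0.025 over all genes tested. By the rule of size 2 of the 30 members above background on at least 1 array were higher, Hk3 and Vegfa, and 0 were lower, beside 1.01% and 0.471% of all genes. The calls rest on the probe chosen and on how the shared spread is estimated. Each gene was read by its brightest probe, and a further probe of Pdk1 lay at log2 -1.16 on this array. With probes averaged, Pkm was no longer called and Pdk1 was called lower. limma called 4 members without a mean-variance trend, namely Hk3, Vegfa, Egln3 and Pkm. It called 0 when the filter was widened to 14640 genes, those that passed background on any array. In that wider fit 5 of 30 members had an unadjusted p under 0.05, beside 3396 of all 14640 genes. With each array scaled by its median, limma called 2 members, the dim genes Pfkfb3 and Slc16a3, and in the unscaled values 2 higher and 9 lower, against a median of -0.38 over all genes. The share of all genes called in the scaling and no-trend settings is not given here or for the other comparisons. The member counts in those settings therefore show no trait of the members.

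On the Ifnar-/- array the members went in both directions. limma called 2 of 26 higher, Vegfa and Ndrg1, and 3 lower, the glycolytic genes Ldha, Gapdh and Pgk1. These shares of 7.69% and 11.5% lie near the 9.05% and 9.44% of all genes called higher and lower in this comparison, 18.5% together. Members lay above both controls in 12 cases and below both in 10, against 44.7% and 36.1% of all genes, and the median log2 difference was 0.016, beside 0.023 over all genes. No member passed the rule of size, which 0.567% of all genes passed as higher and 0.943% as lower. limma called 0 members in this comparison without a mean-variance trend and 0 in the fit over 14640 genes. In that wider fit 4 of 30 members had an unadjusted p under 0.05, beside 2864 of all 14640 genes. Median scaling also left 0 called, and the unscaled values gave 0 higher and 6 lower, against a median of -0.17 over all genes. Both comparisons use the same 2 control arrays.

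**Figure D1:**
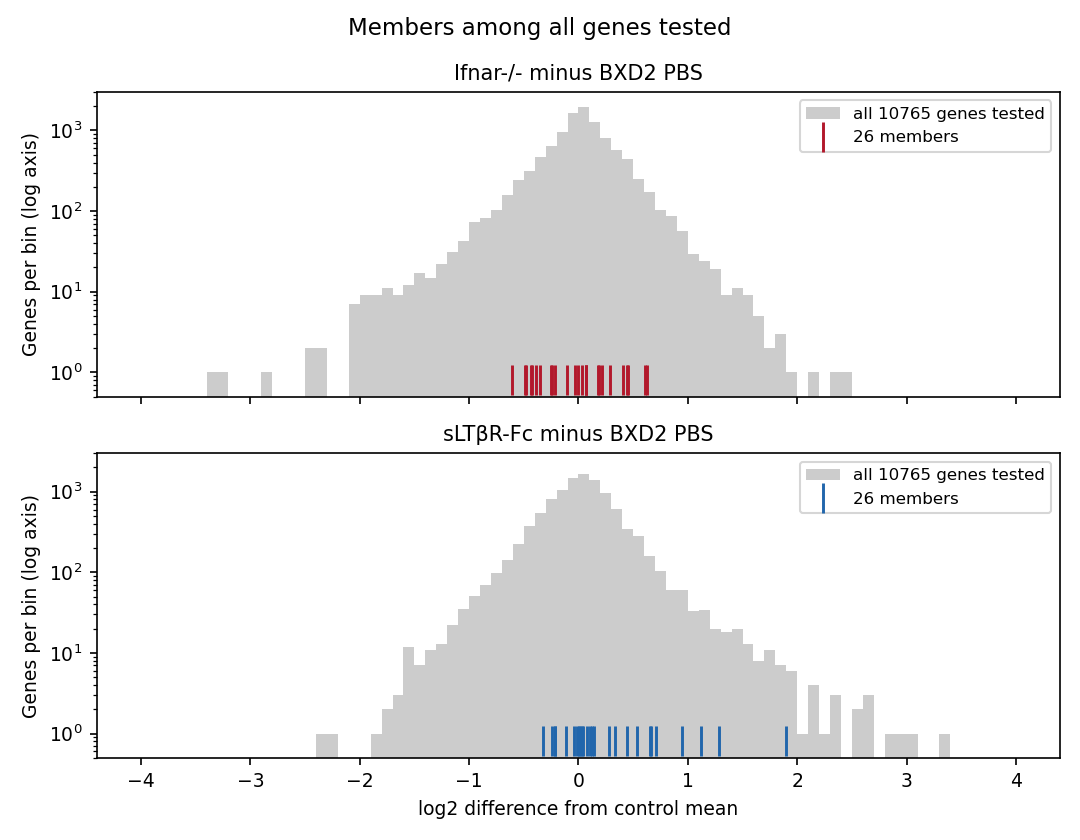
Histograms of the log2 difference from the control mean over all 10765 genes tested (grey, genes per bin of the log2 difference on a log axis), for the Ifnar-/- array above and the sLTβR-Fc array below, with a vertical tick for each of the 26 members. The ticks spread from -0.61 to 0.63 on the Ifnar-/- array and from -0.32 to 1.89 on the sLTβR-Fc array.

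**Figure D2:**
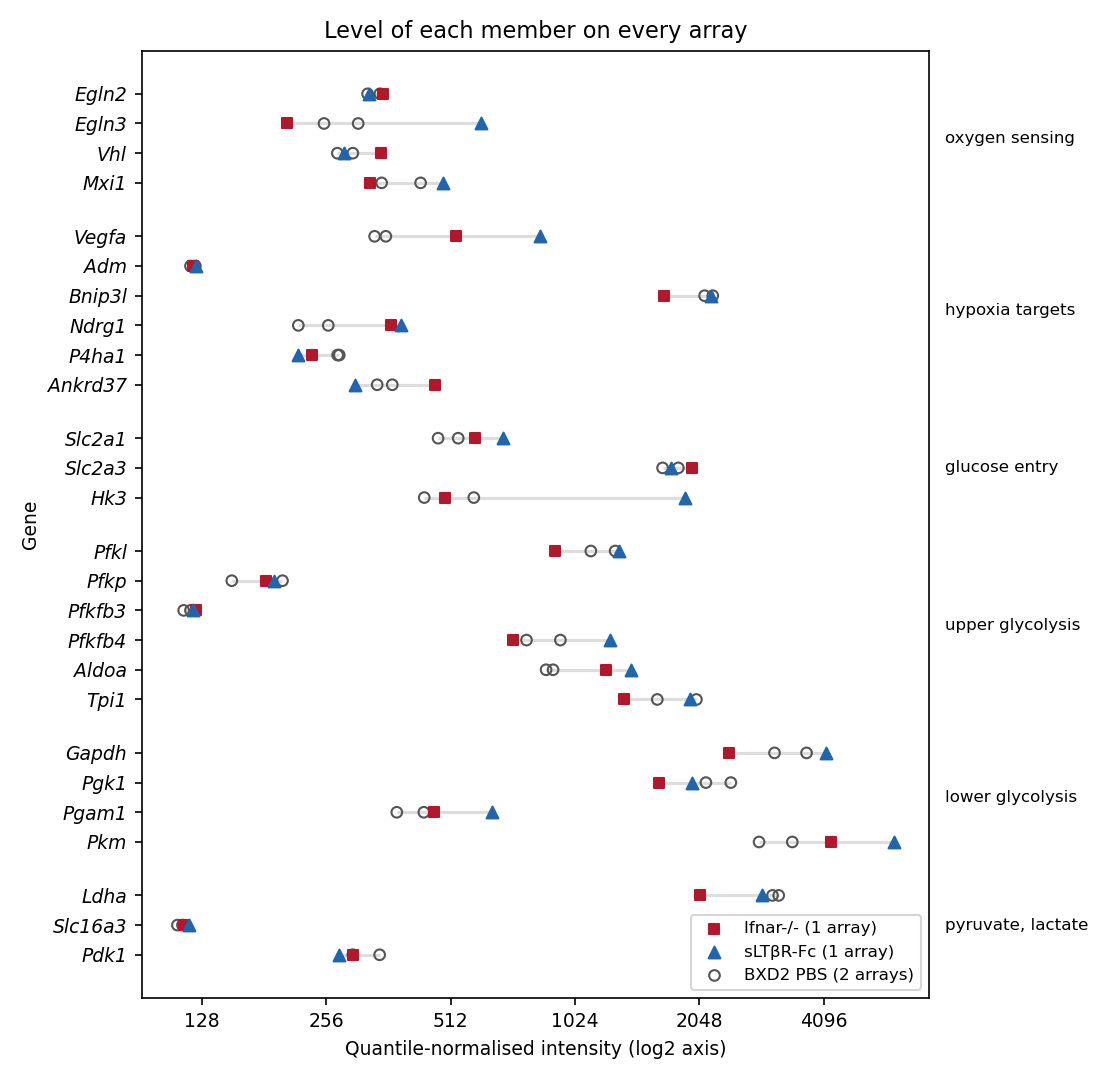
Quantile-normalised intensity (log2 axis) of the brightest probe of each of the 26 members on the Ifnar-/- array (red squares), the sLTβR-Fc array (blue triangles) and the 2 BXD2 PBS arrays (open circles), with genes grouped by role. The sLTβR-Fc symbol of Hk3 stands at 1885, far right of the others at 442 to 583.

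Among the oxygen-sensing genes Egln3 stood out. It encodes a prolyl hydroxylase that marks hypoxia-inducible factors for destruction and is itself induced by them. Egln3 read 205 in the Ifnar-/- sample and 605 in the sLTβR-Fc sample, against 306 and 253 on the control arrays. It rose on the sLTβR-Fc array by a log2 of 1.12 ± 0.21 (SE of the fit, adjusted p = 8.62e-06), 2.18-fold, and missed the rule of size because it was just under 2-fold from control 1 (log2 0.98). On the Ifnar-/- array it lay below both controls without passing the test (log2 -0.44 ± 0.21, adjusted p = 0.149). Its relative Egln2 read 351 and 325 against 345 and 322, and Vhl, the substrate receptor of the ubiquitin ligase, read 346 and 283 against 297 and 272. Neither passed the test on either array. Mxi1, a MAX-binding repressor that antagonises MYC, read 327 and 489 against 433 and 349 (adjusted p = 0.476 and 0.279).

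The hypoxia-inducible factor genes among the members, Hif1a and Epas1, were at or near background. Arnt and Hif3a, given below with the other hypoxia response genes, were above background on every array. Hif1a has 3 probes here, and the brightest was not above background on the Ifnar-/- array, where it read 102, and read 124 on the sLTβR-Fc array, against 114 and 118 on the controls. The bound for a fall on the Ifnar-/- array, taken from the dimmest probes above background there, was 1.05-fold. This bound is hardly wider than the 1.04-fold between the controls and lies at the background limit, so no difference is claimed. Epas1, which encodes the α subunit HIF-2α, was not above background on any array (99.0 and 105 against 105 and 105). Egln1, the main oxygen sensor of most tissues, passed background on 1 array only (108 and 104 against 112 and 104). Hif1a thus passed background on 3 arrays, by a small margin. Hif1a, Epas1 and Egln1 were not in the reported fit. Hif1a and Egln1 entered the wider fit over 14640 genes, which called neither. HIF proteins are controlled mainly through their stability.

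Of the 8 hypoxia target genes, 6 could be tested. Vegfa, the growth factor that drives vessel formation, read 528 in the Ifnar-/- sample and 841 in the sLTβR-Fc sample, against 357 and 335 on the controls. Both lone arrays lay above both controls, at log2 0.61 ± 0.21 (adjusted p = 0.0266) on the Ifnar-/- array and 1.28 ± 0.21 (adjusted p = 1.36e-07) on the sLTβR-Fc array, 1.53-fold and 2.43-fold. Ndrg1, a stress-responsive gene of differentiated cells, read 367 and 389 against 219 and 259. It rose on the Ifnar-/- array (log2 0.63 ± 0.21, adjusted p = 0.0243) and on the sLTβR-Fc array (log2 0.71 ± 0.21, adjusted p = 0.00762). In the deposited, unscaled values the Ndrg1 differences were 0.36 and 0.11, where the median of all genes tested was -0.17 and -0.38.

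The remaining targets did not pass the test on either array. Bnip3l, a mitophagy receptor gene that clears mitochondria from maturing red cells, read 1685 and 2178 against 2107 and 2205. Ankrd37, a small ankyrin-repeat gene induced by HIF, read 470 and 300.4 against 370 and 340.0, above both controls on the Ifnar-/- array and below both on the sLTβR-Fc array. P4ha1, the catalytic subunit of a collagen prolyl hydroxylase, read 237 and 219 against 275 and 273. Adm, which encodes the vasodilator peptide adrenomedullin, stayed between 120.1 and 124 on the 4 arrays. P4ha2 passed background on 3 arrays (110 and 125 against 124 and 115), and Bnip3, the mitophagy relative of Bnip3l, on none.

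Entry of glucose into the pathway gave the largest difference among the 26 members tested. Hk3, a hexokinase of myeloid cells, phosphorylates glucose and so traps it in the cell. Hk3 read 495 in the Ifnar-/- sample and 1885 in the sLTβR-Fc sample, against 583 and 442 on the controls. The sLTβR-Fc value lay far above every other array, and the Ifnar-/- value lay between the controls. The log2 difference on the sLTβR-Fc array was 1.89 ± 0.20 (adjusted p = 1.23e-16), 3.72-fold, and it ranged from 1.23 to 2.09 over the other settings tried. On the Ifnar-/- array it was -0.04 ± 0.20 (adjusted p = 0.935).

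Hk1, the hexokinase of most tissues, was not above background on either lone array (96.4 and 106). It was barely above background on the controls (118 and 111). The bound for a fall was 1.03-fold on each lone array, less than the 1.07-fold between the controls, so no difference was shown. Neither glucose transporter gene was called. Slc2a1, which encodes the widely used carrier GLUT1, read 586 and 686 against 477 and 534, above both controls on both arrays without passing the test (adjusted p = 0.533 and 0.109). Slc2a3, the high-affinity carrier GLUT3, read 1966 and 1748 against 1668 and 1821 (adjusted p = 0.574 and 0.992).

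**Figure D3:**
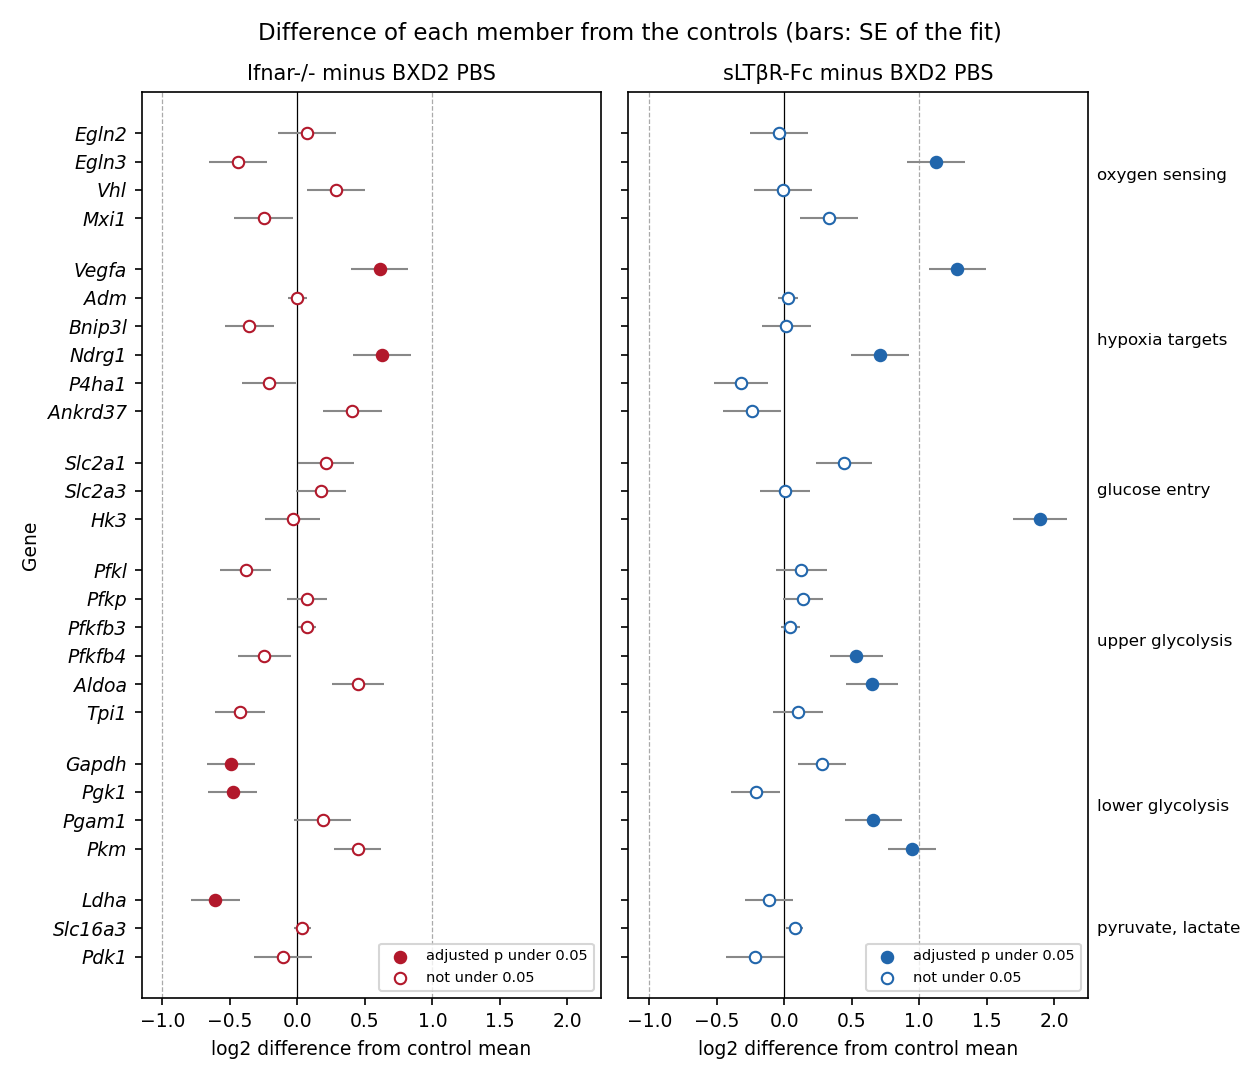
log2 difference of each of the 26 members from the control mean on the Ifnar-/- array (left) and the sLTβR-Fc array (right), with horizontal bars for the SE of the fit, filled symbols for an adjusted p under 0.05 and dashed lines at a log2 of 1 either way. Ldha, Gapdh and Pgk1 are filled left of 0 on the Ifnar-/- array, and Hk3, Vegfa and Egln3 lie right of 1 on the sLTβR-Fc array.

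In the upper part of the pathway, 2 of 6 genes tested rose on the sLTβR-Fc array and 0 were called on the Ifnar-/- array, where 13.2% of all genes were higher and 18.5% were called in either direction. Aldoa, the aldolase that splits fructose bisphosphate, read 1214 and 1396 against 871 and 906, above both controls on both arrays. Its difference passed on the sLTβR-Fc array (log2 0.65 ± 0.19, adjusted p = 0.00618) and not on the Ifnar-/- array (log2 0.45 ± 0.19, adjusted p = 0.0847). Pfkfb4, which makes the allosteric activator of phosphofructokinase and can also remove it, read 724 and 1244 against 944 and 781. It rose on the sLTβR-Fc array (log2 0.53 ± 0.20, adjusted p = 0.0336). Unscaled, the sLTβR-Fc differences of Aldoa and Pfkfb4 were -0.05 and -0.18, above the -0.38 of all genes.

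The phosphofructokinase genes among the members, Pfkl and Pfkp, which encode the committed step of glycolysis, were not called. Pfkm, given below with the other glycolysis genes, was called lower on the Ifnar-/- array. Pfkl read 917 and 1307 against 1280 and 1118, below both controls on the Ifnar-/- array (log2 -0.38 ± 0.19, adjusted p = 0.155). Pfkp read 183 and 192, between its controls of 151 and 201, the pair that stood furthest apart among the members. Pfkfb3, an inducible relative of Pfkfb4, stayed between 116 and 124, close to background. Tpi1, triose phosphate isomerase, read 1347 and 1941 against 2014 and 1619 (log2 -0.42 ± 0.18 and 0.10 ± 0.18, adjusted p = 0.0951 and 0.743).

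Of the 4 genes tested in the lower, energy-yielding steps, 2 fell on the Ifnar-/- array and 2 rose on the sLTβR-Fc array, beside 9.44% of all genes lower and 13.2% higher. Gapdh, glyceraldehyde phosphate dehydrogenase and a common reference gene, read 2419 in the Ifnar-/- sample and 4136 in the sLTβR-Fc sample, against 3719 and 3111 on the controls. It fell on the Ifnar-/- array (log2 -0.49 ± 0.18, adjusted p = 0.0361) and was not called on the sLTβR-Fc array (log2 0.28 ± 0.18, adjusted p = 0.261). Pgk1, phosphoglycerate kinase, read 1632 and 1967 against 2440 and 2123, below both controls on both arrays, and fell on the Ifnar-/- array (log2 -0.48 ± 0.18, adjusted p = 0.0483).

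Pgam1 and Pkm rose on the sLTβR-Fc array. Pgam1, phosphoglycerate mutase, read 465 and 646 against 441 and 379, with a log2 difference of 0.66 ± 0.21 (adjusted p = 0.0132) on the sLTβR-Fc array and 0.19 ± 0.21 on the Ifnar-/- array. In the unscaled values the sLTβR-Fc difference was -0.02. Pkm, pyruvate kinase, read 4269 and 6043 against 2855 and 3435, above both controls on both arrays. Its difference was 0.95 ± 0.18 (adjusted p = 3.99e-06), 1.93-fold, on the sLTβR-Fc array and 0.45 ± 0.18 (adjusted p = 0.0584) on the Ifnar-/- array. A dimmer probe of Pkm went the other way, as described with the further probes.

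At the fate of pyruvate, Ldha fell on the Ifnar-/- array. Ldha, the lactate dehydrogenase subunit that favours lactate formation, read 2054 in the Ifnar-/- sample and 2895 in the sLTβR-Fc sample, against 3077 and 3185 on the controls. The difference was -0.61 ± 0.18 (adjusted p = 0.0071) on the Ifnar-/- array and -0.11 ± 0.18 (adjusted p = 0.709) on the sLTβR-Fc array. Pdk1, a kinase that switches off pyruvate dehydrogenase, read 297 and 275 against 297 and 345 on its brightest probe (adjusted p = 0.8 and 0.505). Slc16a3, the lactate exporter, stayed between 112 and 119, close to background.

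The Ifnar-/- and sLTβR-Fc arrays were then set against each other in the same fit. limma called 5 of 26 members lower on the Ifnar-/- array than on the sLTβR-Fc array and 0 higher, where 9.09% of all genes were lower and 6.7% higher, 15.8% together. The 5 were Hk3 (log2 -1.93 ± 0.23, adjusted p = 3.19e-13), Egln3 (-1.56 ± 0.25, adjusted p = 6.29e-08), Pfkfb4 (-0.78 ± 0.23, adjusted p = 0.00757), Gapdh (-0.77 ± 0.21, adjusted p = 0.00289) and Vegfa (-0.67 ± 0.24, adjusted p = 0.041). Ndrg1 stood at nearly the same level on both (log2 -0.08 ± 0.25, adjusted p = 0.874), and for Ldha the difference was -0.49 ± 0.21 (adjusted p = 0.0856). This comparison holds 1 array on each side. Without a mean-variance trend 2 members were called, Hk3 and Egln3, and in the fit over 14640 genes 0 were. In that wider fit 7 of 30 members had an unadjusted p under 0.05, beside 3115 of all 14640 genes. Median scaling left 0, and the unscaled values gave 1 higher and 2 lower.

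Further probes of the same gene test whether a value belongs to the gene or to 1 probe. Of the 26 members, 8 had a further probe above background on all arrays, and its difference had the sign of the brightest probe in 6 of 8 on the Ifnar-/- array and in 6 of 8 on the sLTβR-Fc array. Vegfa's further probe read 149 and 165 against 113 and 114 (log2 0.39 and 0.54), and that of Ndrg1 read 259 and 250 against 182 and 192 (log2 0.47 and 0.42). Both probes of these genes were thus above both controls on both arrays. Egln3's further probe read 130.1 and 168 against 123 and 124 (log2 0.07 and 0.45), and that of Pgam1 read 198 and 236 against 191 and 199 (log2 0.02 and 0.27). For these 4 genes the further probe gave differences smaller in size than the brightest one. For Egln3 on the Ifnar-/- array the sign was also opposite, 0.07 against -0.44. The signs that disagreed were those of Egln3 and Pkm on the Ifnar-/- array and of P4ha1 and Pkm on the sLTβR-Fc array.

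The probes of Pkm were discordant in sign and those of Pdk1 in size. The further probe of Pkm read 161 and 149 against 216 and 187 (log2 -0.32 and -0.43), below both controls on both arrays, while its brightest probe was above both. The positions of the probes in the transcript were not used here. Pdk1 has 2 probes of similar brightness on the controls, and the further one read 165 in the Ifnar-/- sample and 136 in the sLTβR-Fc sample, against 314 and 294 on the controls (log2 -0.88 and -1.16). It lay well below both controls on both arrays, where the brightest probe read 297 and 275 against 297 and 345. With probes averaged, limma called Pdk1 lower on both arrays (log2 -0.49 and -0.69) and no longer called Pkm. The further probe of Tpi1 read 1245 and 2062 against 1419 and 1426 (log2 -0.19 and 0.54). Hk3, Aldoa, Gapdh and Ldha have 1 probe each.

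**Figure D4:**
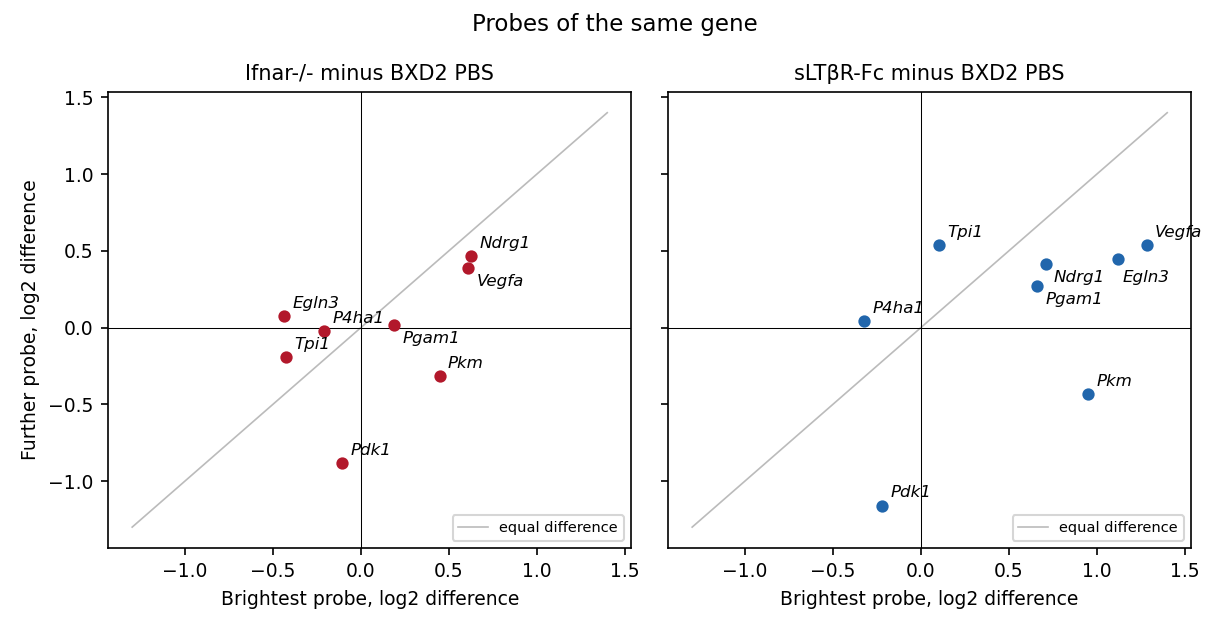
log2 difference from the control mean on the further probe against that on the brightest probe for the 8 members with 2 probes above background on every array, on the Ifnar-/- array (left) and the sLTβR-Fc array (right); the grey line marks equal differences. Pkm lies below 0 on the further probe at -0.32 and -0.43, and Pdk1 lies furthest down at -0.88 and -1.16.

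Other genes of these pathways were read for comparison. Of 15 other hypoxia response genes tested of 19 listed, 1 was higher and 7 were lower on the Ifnar-/- array, and 2 were higher and 1 was lower on the sLTβR-Fc array, with medians of -0.21 and -0.04. Of all genes tested, 9.05% were higher and 9.44% lower with Ifnar-/-, while 13.2% were higher and 9.24% lower with sLTβR-Fc. Bhlhe40, a transcriptional repressor induced by hypoxia and by immune activation, read 1434 and 1716 against 672 and 695 and was 2-fold above each control on both arrays (log2 1.07 ± 0.19 and 1.33 ± 0.19, adjusted p = 1.92e-06 and 1.52e-09). Angptl4, a lipoprotein lipase inhibitor, read 196 and 397 against 412 and 399.8 and was 2-fold lower on the Ifnar-/- array (log2 -1.05 ± 0.22, adjusted p = 4.45e-05). Car9, a cell-surface carbonic anhydrase, and Hif3a, a factor that restrains HIF activity, gave the other calls on the sLTβR-Fc array at log2 0.50 ± 0.09 and -0.53 ± 0.12 (adjusted p = 2.2e-06 and 0.000164). Arnt, the partner that every HIF α subunit needs to bind DNA, read 1144 and 2013 against 2561 and 1866. It fell on the Ifnar-/- array (log2 -0.93 ± 0.18, adjusted p = 1.79e-05). Dimmer probes of these genes did not all go the same way. On the Ifnar-/- array the further probes above background on every array gave log2 0.044, -0.33 and -0.14 for Arnt, and 0.07 for Angptl4. Further probes of Hif3a, not above background on every array, gave 0.07 and 0.25 on the sLTβR-Fc array. Car9, Hif3a and Arnt were named after their values were seen.

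Of 10 other glycolysis and pyruvate genes tested of 20 listed, 1 was higher and 3 were lower on the Ifnar-/- array, and 1 was higher and 0 were lower on the sLTβR-Fc array. The gene named in both as higher was Slc2a6, a glucose transporter family member found in macrophages, at 989 and 1018 against 504 and 631 (log2 0.81 ± 0.20 and 0.85 ± 0.20, adjusted p = 0.000891 and 0.000384). The lower ones were Pfkm, Pgam2 and Pdhb, at log2 -0.60, -0.36 and -0.61. Further probes above background on every array differed from these, at -0.37 and 0.055 for Pfkm and 0.10 and -0.14 for Pdhb. Of 5 pentose phosphate genes, which divert glucose to NADPH and ribose, 2 were lower on the Ifnar-/- array, Rpia and Tkt at log2 -0.94 and -0.68, and 0 were called on the sLTβR-Fc array. These genes were also named after their values were seen.

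Markers of other cells and of cell stress differed on the same arrays, and their part in the members' values was not tested. Eosinophil markers (5 of 9 tested) summed to 4566 in the Ifnar-/- sample and 28166 in the sLTβR-Fc sample, against 5333 and 6011 on the controls, with 4 of 5 called higher on the sLTβR-Fc array and Ccr3 not above background on any. Mast cell and basophil markers (8 of 8 tested) summed to 13684 and 41202 against 14504 and 18484, with 1 higher and 2 lower on the Ifnar-/- array and all 8 called higher on the sLTβR-Fc array. The 2 lower were the protease genes Prss34 and Mcpt8, at 0.355-fold and 0.321-fold of the control mean, named after their values were seen. Neutrophil markers (10 of 10) summed to 4910 and 22075 against 21220.1 and 12501, with 6 lower and 1 higher on the Ifnar-/- array and 3 higher on the sLTβR-Fc array. Immediate early genes, known to respond to stimulation and to tissue dissociation, had 11 of 12 called higher on the Ifnar-/- array and 12 of 12 on the sLTβR-Fc array, with medians of 1.25 in the Ifnar-/- sample and 2.25 in the sLTβR-Fc sample. Their intensities summed to 33463 and 55973 against 17321 and 12896. The eosinophil, mast cell and basophil, neutrophil and immediate early sums were each highest on the sLTβR-Fc array, where Hk3 was highest, the neutrophil sum by a small margin over control 1.

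Dividing, red cell and lymphoid markers differed too, and their part in the members' values was likewise not tested. Cell cycle genes summed to 4807 in the Ifnar-/- sample and 9649 in the sLTβR-Fc sample, against 10856 and 9732 on the controls. Of these genes, 6 of 8 were called lower on the Ifnar-/- array. Erythroid markers summed to 2785 and 3778 against 8758 and 4344, with 6 and 4 of 8 called lower. B cell markers summed to 23181 and 10775 against 15809 and 15066, with 4 of 6 higher on the Ifnar-/- array and 3 of 6 lower on the sLTβR-Fc array. T cell markers summed to 8764 and 7482 against 12729.9 and 15170.1, with 5 and 6 of 7 lower. Dendritic cell markers summed to 6816 and 6018 against 6333 and 5774, with 5 and 2 of 7 higher and 0 and 1 lower. Macrophage markers summed to 2049 and 1898 against 1928 and 1179 (1 higher and 2 lower with Ifnar-/-, 1 higher and 1 lower with sLTβR-Fc), and stromal and endothelial markers to 1324 and 1480 against 1417 and 1333 (1 and 2 of 6 higher), with Col1a1 not above background on any array.

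**Figure D5:**
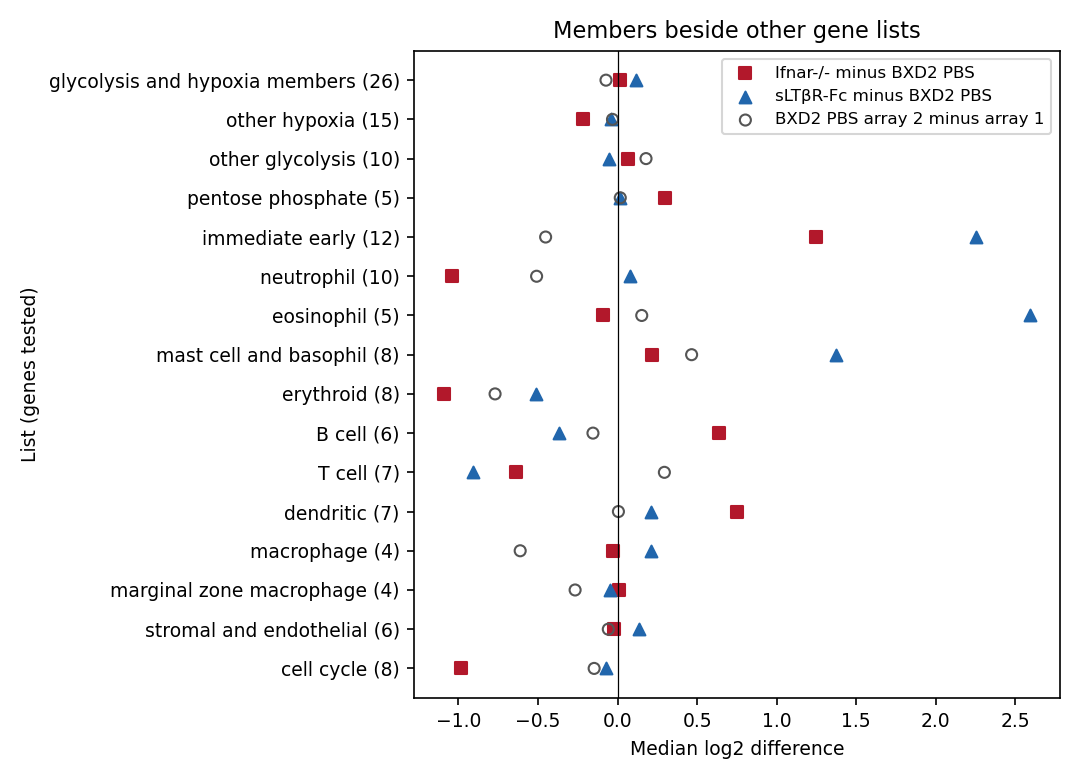
Median log2 difference of the 26 members and of the other gene lists (number of genes tested in brackets) for the Ifnar-/- array (red squares) and the sLTβR-Fc array (blue triangles) from the control mean, with the difference between the 2 control arrays (open circles). The members lie near 0 at 0.016 and 0.12, while eosinophil markers reach 2.60 and immediate early genes 2.25 on the sLTβR-Fc array.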

How the data were processed

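Total RNA of sorted cells was extracted with Trizol and biotin-labelled (Ambion MessageAmp), per the labels' protocols. The submitters' processing notes name GenomeStudio 2011.1. The authors deposited 1 linear intensity per probe and array. No source used here says whether they had subtracted background or scaled the arrays. The lowest intensities, 82.2 to 92.4, show no subtraction to 0. Scanner files were not used here.

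The background of an array was its most frequent intensity, and a probe above the 95% point of the noise mirrored from below it counted as above background. Values were quantile normalised, raised to a floor of 111 and converted to log2. Of all probes, 34885 have 1 gene symbol, 18 several and 10378 none. All 32 measured members matched a reference gene by gene identifier under the same symbol. limma 3.58.1 (R 4.3.3) fitted 3 group means to 4 arrays with a mean-variance trend, leaving 1 residual degree of freedom. The shared variance carried 406 prior degrees of freedom, so the adjusted p-values rest almost wholly on the spread modelled over all genes. Genes above background on only some arrays were left out. With them, 1218 genes had no spread between the controls and the prior degrees of freedom were 0.957. On simulated data for the Ifnar-/- comparison (10765 genes) limma called 92.2% of the genes made to change by a log2 of 1. It also called 9.9 unchanged genes on average. The simulation gave the lone arrays the spread of the controls, so it cannot check that assumption and does not bear on the calls reported here.

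The members, gene lists and tests were chosen with earlier results of these data known. By rule, a member got a value on every array where limma called it, where it passed the rule of size, where its controls stood 1.5-fold apart, or where it was the brightest or dimmest of its role. The values of the remaining members were added after the data were seen. Of other pathway genes, those passing the rule of size were named. The alternatives tried were unscaled values, median scaling, background subtraction, no floor, a wider gene filter, averaged probes, no variance trend and leaving out either control.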

Additional observations from a re-analysis of the deposited data

How the results depend on the processing

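The titles of the lone Ifnar-/- and sLTβR-Fc arrays carry no replicate number and pair them with no control array, so no paired analysis was made. The count of members called on the Ifnar-/- array, 5, was 0 under median scaling, 0 with genes above background on at least 1 array and 0 without a variance trend. The count on the sLTβR-Fc array, 8, was 2 under median scaling (Pfkfb3 and Slc16a3, both dim), 0 with the wider filter and 4 without a trend. Unscaled it was 11, with 2 higher and 9 lower. With probes averaged, Pdk1 was called lower on both lone arrays, and Pkm was no longer called on the sLTβR-Fc array. Between the lone arrays the count of 5 was 3 unscaled, 0 under median scaling, 0 with the wider filter and 2 without a trend. Median scaling left 353 genes and the wider filter 1218 genes with no spread between the controls, against 5 in the reported fit, and the prior degrees of freedom were 1.43 and 0.957, against 406. The prior degrees of freedom were 3.75 without a trend and 12.7 unscaled. The cause was not tested for any of these settings. Except for the wider filter, the share of all genes called was not set beside these counts.

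The 2 members that passed the rule of size on the sLTβR-Fc array were 0 unscaled, 1 under median scaling and 1 with probes averaged, and 3 without either control. No member passed this rule on the Ifnar-/- array under any of the alternatives. The members' median on the Ifnar-/- array was -0.19 unscaled, where all genes stood at -0.17, and between -0.0036 and 0.020 with either control left out. On the sLTβR-Fc array it was -0.27 unscaled, where all genes stood at -0.38, 0.17 under median scaling, and between 0.082 and 0.15 with either control left out. Unscaled, the difference changed sign in 8 of 26 members on the Ifnar-/- array, in 14 on the sLTβR-Fc array and in 5 between the lone arrays. The 14 include Aldoa (-0.048), Pfkfb4 (-0.18) and Pgam1 (-0.016), called higher in the reported fit, and Bnip3l (-0.67), Pfkl (-0.59) and Slc2a3 (-0.68), called lower unscaled. Under median scaling 1, 4 and 2 members changed sign. Across all genes tested, limma called 1990, 2413 and 1700 in the 3 comparisons, against 0 in each with the wider filter, where 2864, 3396 and 3115 genes had an unadjusted p under 0.05. Over 7 alternatives with a test, Hk3 and Vegfa kept their call on the sLTβR-Fc array in 5 each and Egln3 in 4, with adjusted p up to 0.168, 0.157 and 0.187. Adm, Pfkfb3 and Slc16a3 lie close to background, where differences are understated and a fall cannot be followed below the floor.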
